A study of Mus musculus with 15 samples.

Results

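Keratins are the intermediate filament proteins of epithelial cells. Each filament is built from pairs of 1 acidic type I and 1 basic-to-neutral type II chain, and epithelial cells switch pairs as they change place or mature: basal keratinocytes carry Krt5 with Krt14, differentiating ones Krt1 with Krt10, activated or wounded ones Krt6a, Krt16 and Krt17, and the root sheaths and the hair shaft have sets of their own. Basal cell carcinoma is a Hedgehog-driven tumour of the skin, and its keratins are read as a record of which epidermal or follicular layer the tumour cells resemble. The family was taken as every protein-coding gene whose mouse symbol is Krt followed by a number, with or without a letter, after the Entrez identifiers of the files had been matched to symbols; keratin-associated protein genes (Krtap) and Krtdap were not counted as members. This gave 53 keratins of the 36528 genes in the files, 28 of type I and 25 of type II.

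The polyA RNA of sorted tumour cells from mouse basal cell carcinomas of the skin was sequenced in 15 libraries. Of these, 8 came from mice at 6 days of vismodegib, 3 from mice at 14 days of vismodegib and 4 from control mice, which the series' design text calls untreated; vismodegib blocks the Hedgehog transducer SMO. Mice of all 3 groups, controls included, carried K14Cre-ER, an inducible Cre under the Krt14 promoter, so that recombination was set off in cells with that promoter active. They also carried floxed alleles of the Hedgehog receptor Ptch1 (Ptch1fl/fl) and of Trp53 (p53fl/fl), and a GFP reporter at the stem cell gene Lgr5 (Lgr5GFP). The labels give neither the age of the mice nor the sort gate, and do not tie each library to an animal of its own, so each p-value measures only the spread between these libraries.

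Levels are given as CPM, the count of a gene as a share of the library's total, after scaling between libraries. Tests are edgeR quasi-likelihood tests over 18751 genes, a call is a Benjamini-Hochberg adjusted p under 0.05 over those genes, and ± is the SD between libraries. Total counts ran from 27336935 to 256569828 per library, so that 3 counts in a library equalled at most 0.110 CPM; this floor reflects counting error alone. The submitters' sample numbers fall into 3 ranges whose meaning the labels do not give. In range A were 5 of the 6-day and 3 of the control libraries, and in range B, at higher depth, 6-day replicates 2, 5 and 7 and control replicate 4. All 14-day libraries, and nothing else, made up range C, so range C and 14 days cannot be told apart. The libraries held epithelial transcripts: all 8 epithelial markers (among them Epcam, Cdh1 and Itga6) were tested, and their summed level was 3583 to 4724 CPM at 6 days, 6023 to 6784 CPM at 14 days and 3476 to 4412 CPM in controls. Of these 8, edgeR called 2 at 14 days against control, where 3.25% of all genes were called higher. Itga6 and Cdh1 were higher there (1.94-fold and 2.26-fold, edgeR adjusted p = 0.0050 and 0.0241). In that comparison 4 of the 8 had an unadjusted p under 0.05, and DESeq2 called 4. Itga6 and Cdh1 were also higher at 14 than at 6 days (1.49-fold and 2.23-fold, edgeR adjusted p = 0.0410 and 0.0226), where 2.14% of all genes were called higher. At 6 days against control edgeR called 0 of the 8. Summed fibroblast markers stayed at or under 21.4 CPM and endothelial markers at or under 5.75 CPM in each library. The Hedgehog target Hhip was lower than in controls at both times (5.54-fold at 6 days and 6.95-fold at 14 days, edgeR adjusted p = 0.0362 and 0.0394). Ptch1 was lower at 14 days (12.3-fold, edgeR adjusted p = 0.0454), but it is a gene floxed in these mice. Counts per gene do not tell its recombined alleles from intact ones.

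The type I genes, with the exception of Krt18, lie together on chromosome 11 and the type II genes, with Krt18, on chromosome 15. In GRCm38 coordinates of the RefSeq table, 27 members span chr11:99232761-100269951 and 26 members span chr15:101348315-102032026. The 250 bases before the start site are shown for the 4 of the 6 called keratins that matched an entry of the promoter table; the other 2 are Krt15 and Krt80. They are shown because these genes changed in opposite directions from the same cluster on chromosome 11, where Krt10 and Krt12 lie side by side with 18.21 kb between them. Sequences are from RefSeq, build GRCm38.p6, each read 5′ to 3′ on the minus strand up to the base before the start site, with each TATAAA in capitals. Krt10 is at chr11:99389365-99389614, Krt12 at chr11:99422260-99422509, Krt32 at chr11:100088270-100088519 and Krt42 at chr11:100269952-100270201.
Krt10: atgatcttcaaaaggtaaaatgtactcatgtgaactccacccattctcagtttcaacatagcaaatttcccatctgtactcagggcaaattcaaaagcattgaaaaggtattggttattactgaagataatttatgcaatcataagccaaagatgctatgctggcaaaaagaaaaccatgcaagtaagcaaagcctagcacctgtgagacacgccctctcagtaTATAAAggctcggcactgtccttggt
Krt12: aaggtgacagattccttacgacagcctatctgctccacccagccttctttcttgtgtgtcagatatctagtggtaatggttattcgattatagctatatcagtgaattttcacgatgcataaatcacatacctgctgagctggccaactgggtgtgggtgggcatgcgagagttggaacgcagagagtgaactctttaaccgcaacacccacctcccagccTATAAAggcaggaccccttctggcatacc
Krt32: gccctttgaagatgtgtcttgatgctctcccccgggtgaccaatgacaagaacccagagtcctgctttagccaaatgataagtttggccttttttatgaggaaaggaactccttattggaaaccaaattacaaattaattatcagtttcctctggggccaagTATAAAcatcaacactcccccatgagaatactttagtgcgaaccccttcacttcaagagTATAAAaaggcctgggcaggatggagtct
Krt42: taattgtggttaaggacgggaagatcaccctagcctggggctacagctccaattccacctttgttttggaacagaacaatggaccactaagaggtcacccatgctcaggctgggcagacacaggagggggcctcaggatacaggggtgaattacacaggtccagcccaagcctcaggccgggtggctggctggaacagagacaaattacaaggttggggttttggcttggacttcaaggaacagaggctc
TATAAA began 26 bases before the start site in Krt10 and 29 bases before it in Krt12 and Krt32, with a further match in Krt32, and the window of Krt42 held none. A RefSeq promoter was given for 36 of the 53 keratins (37 promoters). TATAAA on the gene's strand lay 15 to 40 bases before the start site in 14 of these 37 promoters (37.8%), against 2.11% of 32851 promoters of the same length. Anywhere in the window it was found in 15 of 37 (40.5%), against 7.59% of the promoters. The word GACCACCCA, bound by the Hedgehog effectors of the GLI family, was in none of the 37 keratin promoters on either strand, and in 0.225% of the 32851. The palindrome GCCNNNGGC, bound by AP-2 factors, was in 5 of 37 (13.5%), against 13.7%, and Krt42 held it at 2 places. Of the 2 genes in this set that were lower after treatment, Krt12 held the TATA word and Krt42 did not, and both that were higher, Krt10 and Krt32, held it.

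Few keratins carried nearly all keratin transcripts. Keratin counts made up 3.11 to 4.19% of all counts at 6 days, 2.92 to 4.67% at 14 days and 2.03 to 4.20% in controls. Per gene length, in the authors' RPKM, Krt15, Krt5, Krt17 and Krt14 together held 80.8 to 98.0% of the summed keratin level in each library. The medians over the 15 libraries were 5146 RPKM for Krt15, 3004 for Krt5, 2379 for Krt17 and 2054 for Krt14, followed by 525 for Krt79 and 80.1 for Krt10. On the CPM scale 5 members had a median over the libraries of at least 1000 CPM, 14 of at least 10 CPM and 25 of at least 1 CPM, while 13 members stayed under 1 CPM in every library. After the filter on low counts 45 of the 53 members were tested. The 8 others were Krt26 and Krt72 of the inner root sheath and Krt33b, Krt34, Krt39, Krt40, Krt81 and Krt86 of the hair shaft; none of them exceeded 0.475 CPM, and Krt39 had no count.

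**Figure D1:**
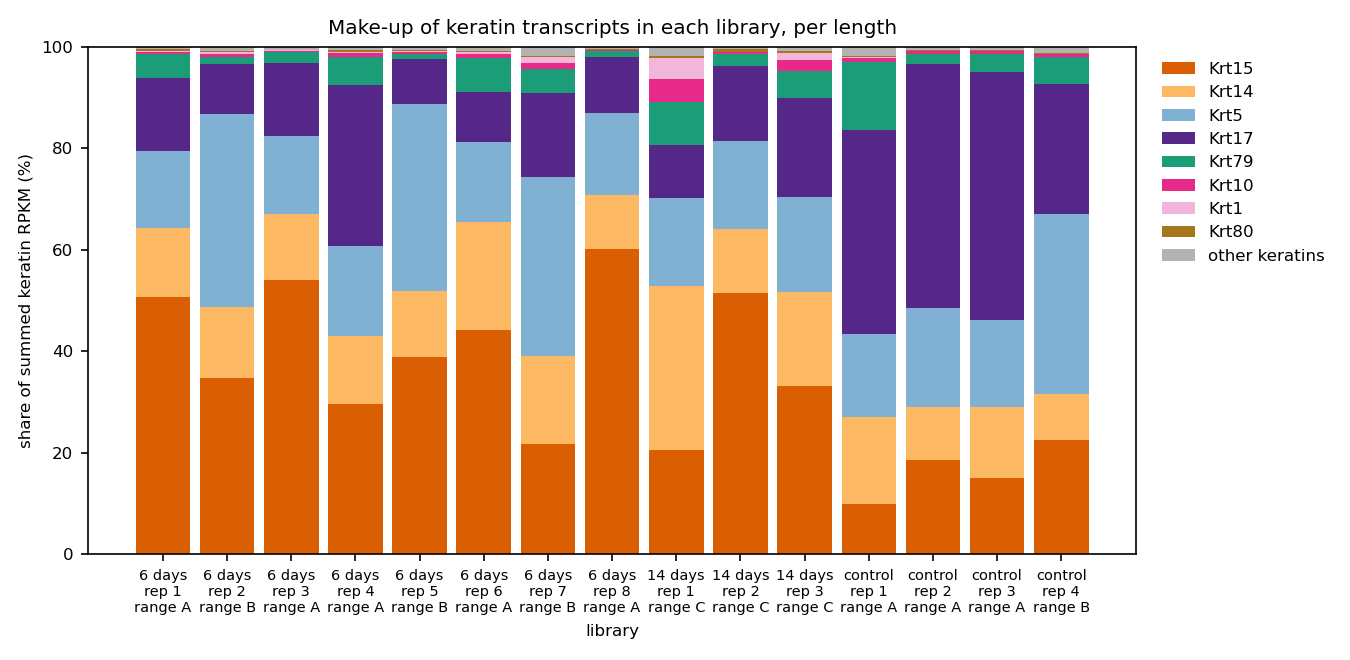
Share of the summed keratin RPKM (vertical axis, %) taken by 8 keratins and by the rest, in each of the 15 libraries (horizontal axis, with group, replicate and range of sample numbers). Krt17 took 25.7 to 48.9% in the control libraries and Krt15 took 20.6 to 60.2% in the treated ones; Krt5 was larger in the range B libraries.

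The member with the highest RPKM differed between the groups. It was Krt15 in 5 of the 6-day libraries, Krt5 in 2 and Krt17 in 1, Krt15 in 2 and Krt14 in 1 of the 14-day libraries, and Krt17 in 3 and Krt5 in 1 of the control libraries. The RPKM of Krt15 over that of Krt17 ran from 0.936 to 5.41 at 6 days, with a median of 3.67, and was 1.98, 3.47 and 1.69 at 14 days, against 0.247, 0.384, 0.306 and 0.874 in the controls. The ratio was above 1 in 7 of 8 libraries at 6 days, in 3 of 3 at 14 days and in 0 of 4 controls, and both treated groups lay wholly above the controls. The gap was narrow, with 0.936 as the lowest treated and 0.874 as the highest control value. Krt15 over Krt14 overlapped between groups, at 1.25 to 5.65 at 6 days and 0.640 to 4.06 at 14 days, against 0.582 to 2.46 in controls. Neither ratio was tested. Basal keratins (Krt5, Krt14 and Krt15) took 60.8 to 88.7% of the keratin RPKM at 6 days and 70.3 to 81.4% at 14 days, against 43.3 to 67.0% in controls. Most of this difference was Krt15, whose median share was 41.5% at 6 days and 33.1% at 14 days, against 16.7% in controls. The medians of Krt5 were 17.0 and 17.5%, against 18.3%, and those of Krt14 13.5 and 18.7%, against 12.3%. Shares are parts of 1 total, so a rise in 1 lowers others. The wound and outer sheath keratins, nearly all Krt17, took 9.26 to 31.8% at 6 days and 11.3 to 19.8% at 14 days, against 26.3 to 49.1% in controls. The balance of chain types moved with the range of sample numbers. Type I over type II RPKM was 1.35 to 1.59 in the range B libraries and 2.15 to 4.64 in the others, and Krt5 took 35.1 to 38.2% of the keratin RPKM in range B and 15.1 to 19.4% elsewhere. Range B also stood apart over all tested genes. The first principal component of their log2 CPM, the axis along which libraries differed most, held 32.8% of the variance. On it the range B libraries lay at 124 to 149 and all others at -73.2 to -20.7. The fit behind the calls has no term for range. Whether the range has a part in the shares of other keratins was not tested.

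At 6 days against control 1 of 45 keratins was higher and 2 were lower, where 1.26% of all tested genes were called (0.485% higher and 0.773% lower). The median log2 fold change of the 45 was 0.13, against 0.03 over all tested genes. At 14 days against control 4 of 45 were higher and 2 lower, where 6.60% of all genes were called (3.25% higher and 3.35% lower), and the medians were 0.20 and -0.02. Between the treated groups 1 of 45 was higher at 14 days than at 6 days and 0 were lower by edgeR, where 3.89% of genes were called (2.14% higher and 1.75% lower), with medians of 0.14 and -0.06; 12 of the 45 had an unadjusted p under 0.05 there, and DESeq2 called 5 higher and 3 lower. Groups did not overlap in 1 of 45 keratins at 6 days against control (2.69% of all genes), in 9 at 14 days against control (23.4%) and in 6 at 14 against 6 days (11.7%). These keratin counts were near the shares of all genes, so non-overlap of an uncalled member is given below as a description only. Of type I, 5 of 23 tested members were called at 14 days against control, and of type II 1 of 22. The comparisons with control share the same 4 control libraries. In bulk RNA of this kind, more cells of a type and more RNA per cell of that type cannot be told apart.

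**Figure D2:**
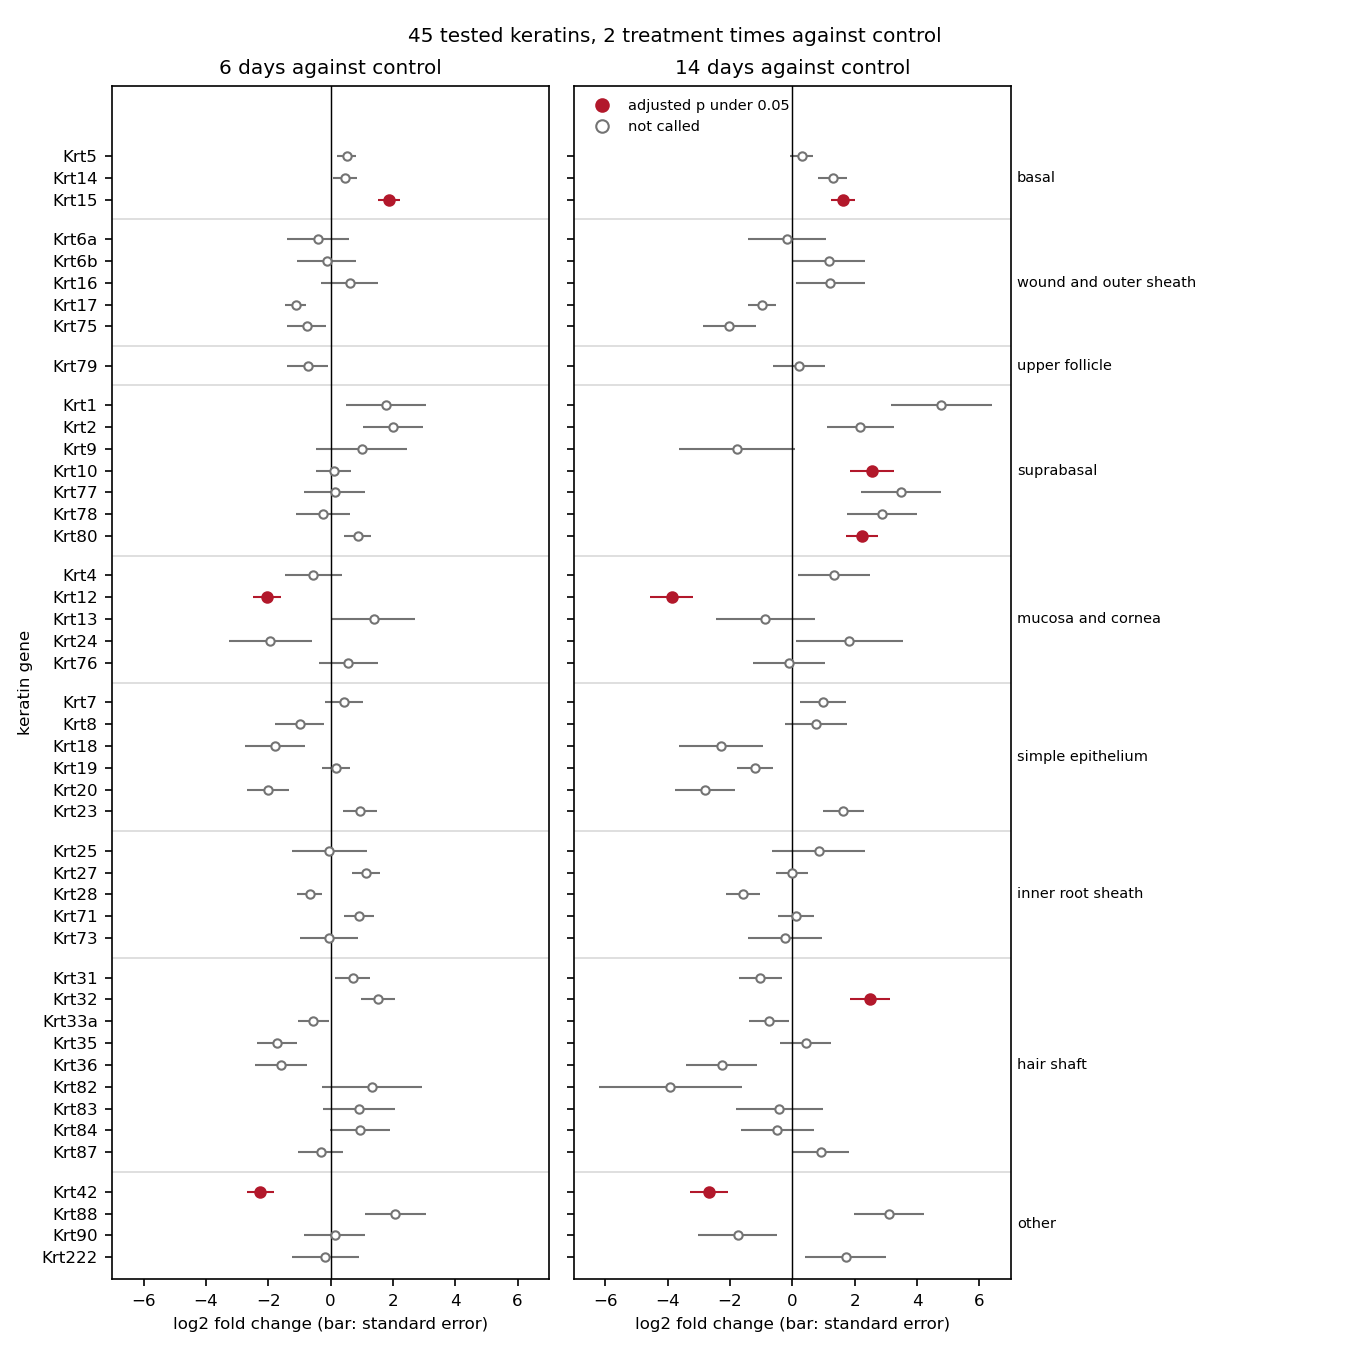
Fold changes of the 45 tested keratins against control on the log2 scale (horizontal axis; bars give the standard error) at 6 days and at 14 days, by compartment (rows). Red points have an edgeR adjusted p under 0.05: Krt15 higher and Krt42 and Krt12 lower at both times, and Krt10, Krt80 and Krt32 higher at 14 days.

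Krt15, the type I keratin of basal cells that marks the stem cells of the hair follicle bulge, was higher at both times. At 6 days Krt15 had a lowest, median and highest level of 6256, 12702 and 23375 CPM, and at 14 days levels of 9670.1, 14433 and 11444 CPM, against 3880.3, 3945, 3179 and 4461 CPM in the control libraries. Every treated library of either time lay above all 4 controls. The mean was 14179 ± 6032 CPM at 6 days (n = 8) and 11849 ± 2407 CPM at 14 days (n = 3), against 3866 ± 527 CPM in controls (n = 4). Krt15 was 3.67-fold higher at 6 days (log2 fold change 1.87, standard error 0.34, edgeR adjusted p = 0.0166) and 3.06-fold higher at 14 days (1.62, 0.38, edgeR adjusted p = 0.0223), and the treated groups differed by -0.26 (standard error 0.35, edgeR adjusted p = 0.699). Within range A the log2 fold change at 6 days was 2.22 (edgeR adjusted p = 0.0060), and within range B, with 1 control, 1.08 (edgeR adjusted p = 0.436); the test of the difference between the ranges gave an edgeR adjusted p of 0.463. The 6-day call was lost without control replicate 2 or 3 (edgeR adjusted p = 0.0738 and 0.0756), and the 14-day call without control replicate 2 or 3 or 14-day replicate 2 or 3 (edgeR adjusted p of 0.0579 to 0.0754).

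Krt14 and Krt5, the pair that defines basal keratinocytes, did not pass the test in any comparison. The levels of Krt14 were 3946 to 6989 CPM at 6 days, with a median of 4528 CPM, and 15552, 3658 and 6657 CPM at 14 days, against 6863, 2319, 3069 and 1863 CPM in controls. The highest value was that of 14-day replicate 1, and the groups overlapped. Log2 fold changes of Krt14 were 0.47 at 6 days and 1.29 at 14 days against control (edgeR adjusted p = 0.732 and 0.107). Krt5 ran from 6337 to 14826 CPM at 6 days (median 7921), and was 10432, 6180.0 and 8212 CPM at 14 days, against 8041, 5279.7, 4625 and 8948 CPM in controls. Log2 fold changes of Krt5 were 0.52 and 0.30 (edgeR adjusted p = 0.544 and 0.679), and its 3 highest 6-day values and highest control value were those of range B. Krt14, whose promoter drives the Cre of these mice, was at 1863 CPM or more in every library.

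**Figure D3:**
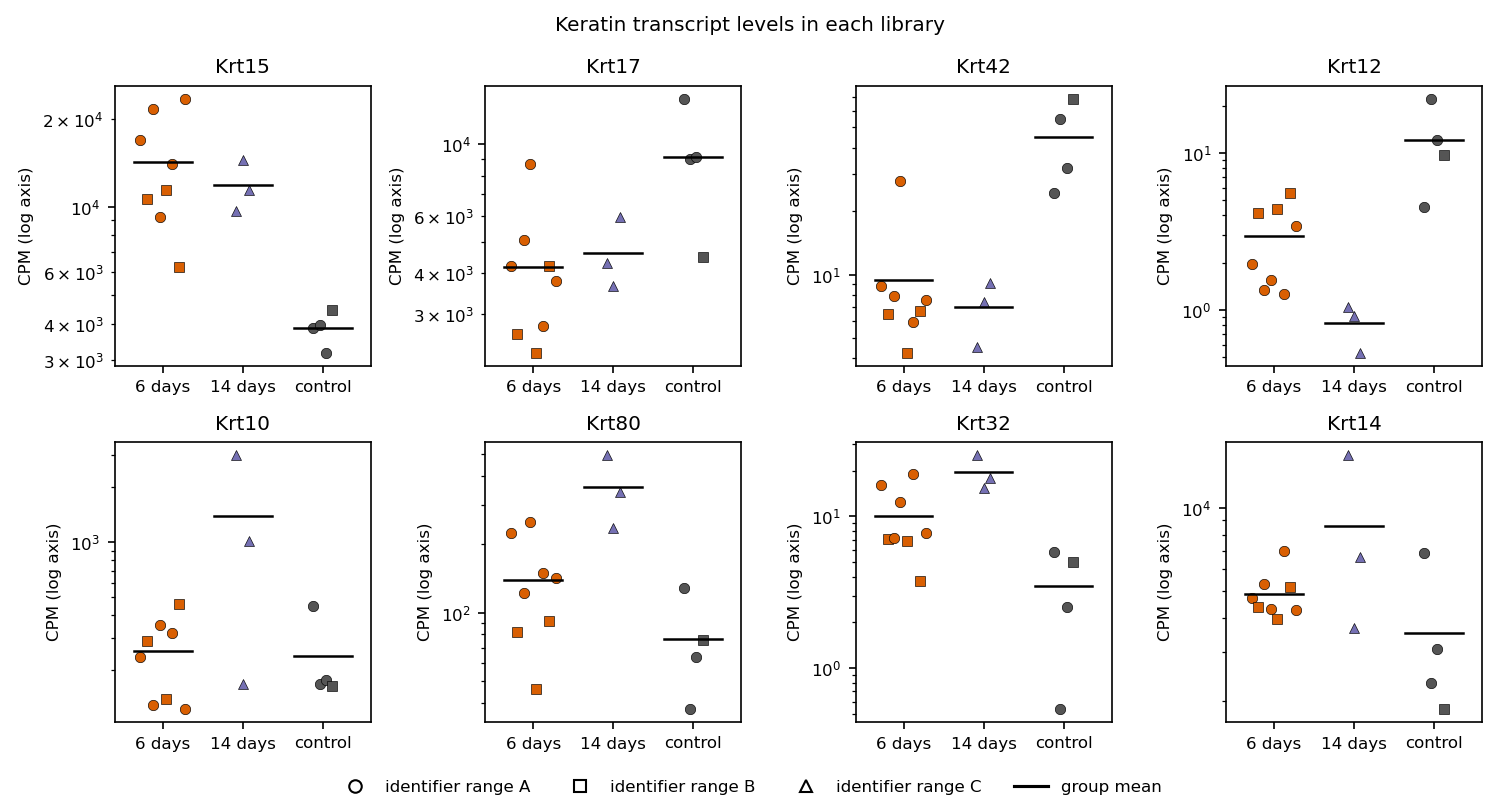
CPM of 8 keratins in each library on log axes, by group (horizontal axis); the line is the group mean and the marker shape gives the range of sample numbers. Krt15 of the treated libraries lies at 6256 CPM or more, against 4461 CPM or less in the control libraries. The group means of Krt12 were 2.94 CPM at 6 days and 0.8286 CPM at 14 days, against 12.2 CPM in controls.

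Among the 5 keratins of wounded epidermis and of the outer root sheath edgeR called 0 at 6 days (1 at an unadjusted p under 0.05, 1 by DESeq2) and 0 at 14 days (2 and 0). Krt17, which is induced in activated keratinocytes and is abundant in basal cell carcinoma, was the highest keratin of 3 control libraries. At 6 days Krt17 had a lowest, median and highest level of 2276, 4008 and 8691 CPM, and at 14 days levels of 4299, 3652 and 5956 CPM, against 13802, 9023, 9123 and 4485 CPM in the control libraries. Control replicate 4 was the lowest control; 2 of the 14-day libraries lay below it and the third did not, and 6-day replicates 3 and 4 also exceeded it. Krt17 averaged 4201 ± 2051 CPM at 6 days and 4636 ± 1188 CPM at 14 days, against 9108 ± 3804 CPM in controls. The log2 fold changes were -1.12 (standard error 0.34, edgeR adjusted p = 0.142) and -0.97 (0.45, edgeR adjusted p = 0.211). With DESeq2 the 6-day value was -1.15 (adjusted p = 0.0448).

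Krt6a, Krt6b and Krt16, the wound keratins, overlapped between all 3 groups. The levels of Krt6a were 30.1 to 418 CPM at 6 days, with a median of 100 CPM, and 374, 14.9 and 60.1 CPM at 14 days, against 600.1, 19.6, 31.1 and 26.1 CPM in controls. Krt16 ran from 6.97 to 87.6 CPM at 6 days (median 16.7), and was 99.9, 1.89 and 17.9 CPM at 14 days, against 44.0, 3.03, 4.31 and 16.9 CPM in controls. Both were high in 6-day replicate 7, 14-day replicate 1 and control replicate 1. At 6 days Krt6b had a lowest, median and highest level of 1.08, 3.35 and 6.39 CPM, and at 14 days levels of 19.9, 0.473 and 2.73 CPM, against 12.2, 0.356, 0.656 and 0.537 CPM in the control libraries. Krt6a and Krt6b share 48.5% and 44.8% of their 50-base words with transcripts of other keratins, each mainly with the other, so their separate values are uncertain; Krt14 and Krt16 share 14.4% and 12.4% of theirs with other keratins. Log2 fold changes against control at 6 and 14 days were -0.41 and -0.18 for Krt6a, -0.12 and 1.17 for Krt6b, and 0.61 and 1.22 for Krt16, with edgeR adjusted p of at least 0.555. Krt75, of the companion layer that lines the outer sheath, overlapped between groups as well. The levels of Krt75 were 13.1 to 53.2 CPM at 6 days, with a median of 35.8 CPM, and 2.20, 25.5 and 15.6 CPM at 14 days, against 42.3, 17.6, 12.4 and 162 CPM in controls. Its log2 fold changes were -0.77 and -2.02 (edgeR adjusted p = 0.730 and 0.163).

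Krt79, of the infundibulum and sebaceous duct, was the fifth most abundant keratin per length. Krt79 ran from 411 to 2666 CPM at 6 days (median 1362), and was 4813, 822 and 2256 CPM at 14 days, against 6376, 543, 914 and 1301 CPM in controls. The control replicate 1 value exceeded all treated libraries and the groups overlapped throughout, with log2 fold changes of -0.74 and 0.20 against control (edgeR adjusted p = 0.768 and 0.916). Sebocyte markers, of which 6 of 7 were tested, with 0 called by edgeR, 0 at an unadjusted p under 0.05 and 0 by DESeq2, summed to 118 to 423 CPM at 6 days, 209 to 367 CPM at 14 days and 151 to 230 CPM in controls.

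Of 7 keratins of the suprabasal layers, 2 rose by edgeR against control at 14 days, Krt10 and Krt80, where 3.25% of all genes were called higher. In that comparison 5 of the 7 had an unadjusted p under 0.05, and DESeq2 called 5. Of the 7, 6 had a positive log2 fold change and Krt9 a negative one (-1.77), and the median was 2.55, against -0.02 over all genes. At 6 days 0 of 7 passed by edgeR, 0 had an unadjusted p under 0.05, DESeq2 called 0, and the median was 0.86. Against 6 days, 1 of the 7, Krt10, rose by edgeR at 14 days, where 2.14% of all genes were called higher, and the median of the 7 was 2.45. There 5 of the 7 had an unadjusted p under 0.05, and DESeq2 called 4. Suprabasal keratins held 9.85% and 4.18% of the keratin RPKM in 14-day replicates 1 and 3 and 1.011% in 14-day replicate 2, against 0.475 to 2.61% at 6 days and 0.652 to 1.33% in controls, so that replicate 2 lay inside the ranges of both other groups.

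Krt10, the type I chain of differentiating keratinocytes, passed in both comparisons of the 14-day group. At 6 days Krt10 had a lowest, median and highest level of 122, 262 and 461 CPM, and at 14 days levels of 3011, 167 and 1016 CPM, against 447, 168, 178 and 163 CPM in the control libraries. The values of 14-day replicates 1 and 3 exceeded every other library, and that of replicate 2 lay within the 6-day range and below 3 of the controls. Krt10 was 5.85-fold higher at 14 days than in controls (log2 fold change 2.55, standard error 0.71, edgeR adjusted p = 0.0452) and 5.47-fold higher at 14 than at 6 days (2.45, 0.57, edgeR adjusted p = 0.0332), while 6 days against control gave 0.10 (0.56, edgeR adjusted p = 0.981). Without 14-day replicate 1 these became 2.50-fold (edgeR adjusted p = 0.344) and 2.33-fold (edgeR adjusted p = 0.476). The call against control was also lost without 14-day replicate 3, without control replicate 2, 3 or 4 and without any of 6-day replicates 1 to 6, with edgeR adjusted p of 0.0504 to 0.112. That against 6 days was also lost without 14-day replicate 3 or 6-day replicate 1, 2, 3, 5 or 8 (edgeR adjusted p of 0.0508 to 0.0855). The call against control was not made in the fit of the 14-day and control libraries alone (2.55, edgeR adjusted p = 0.142) or without the range B libraries (2.39, edgeR adjusted p = 0.0805).

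Krt80, a type II keratin of cells entering terminal differentiation that lies near desmosomes, rose at 14 days. The levels of Krt80 were 45.8 to 253 CPM at 6 days, with a median of 132 CPM, and 497, 236 and 343 CPM at 14 days, against 129, 37.4, 63.4 and 75.9 CPM in controls. All 3 14-day libraries lay above the controls. Krt80 averaged 139 ± 70.7 CPM at 6 days and 359 ± 131 CPM at 14 days, against 76.4 ± 38.5 CPM in controls, and was 4.70-fold higher at 14 days than in controls (log2 fold change 2.23, standard error 0.51, edgeR adjusted p = 0.0186). At 14 against 6 days the value was 1.37 (edgeR adjusted p = 0.08), and at 6 days against control 0.86 (edgeR adjusted p = 0.424). The 14-day call was lost without control replicate 2 or 3 or 14-day replicate 1 or 3 (edgeR adjusted p of 0.0523 to 0.0897).

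Krt1, the type II partner of Krt10, ranged over several orders of magnitude between libraries. Krt1 ran from 23.4 to 519 CPM at 6 days (median 81.0), and was 2779, 36.1 and 660.4 CPM at 14 days, against 147, 1.49, 19.1 and 0.996 CPM in controls. Its 14-day replicate 2 was below the median of the 6-day group, and 2 controls were near 1 CPM. The log2 fold change at 14 days against control was 4.78, with a standard error of 1.61 (edgeR adjusted p = 0.0882; DESeq2 adjusted p = 0.0112). Krt77, another type II keratin of suprabasal cells, followed the same libraries. At 6 days Krt77 had a lowest, median and highest level of 2.46, 14.9 and 29.1 CPM, and at 14 days levels of 345, 23.5 and 106 CPM, against 39.0, 0.208, 16.8 and 0.738 CPM in the control libraries. Its log2 fold change against control at 14 days was 3.48 (edgeR adjusted p = 0.118), and against 6 days 3.35 (edgeR adjusted p = 0.0722).

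Krt78, a type II keratin of the upper epidermal layers, was low throughout. The levels of Krt78 were 0.204 to 1.34 CPM at 6 days, with a median of 0.735 CPM, and 12.1, 3.38 and 4.63 CPM at 14 days, against 0.163, 0, 1.06 and 2.36 CPM in controls. Each 14-day library lay above every 6-day and every control library. Groups did not overlap in 23.4% of all genes at 14 days against control and in 11.7% at 14 against 6 days. Log2 fold changes were 2.88 against control (edgeR adjusted p = 0.135) and 3.12 against 6 days (edgeR adjusted p = 0.0621), and without the range B libraries 4.03 against control (edgeR adjusted p = 0.0366). Krt2 ran from 0.179 to 2.90 CPM at 6 days (median 0.815), and was 0.910, 1.88 and 0.926 CPM at 14 days, against 0.732, 0.208, 0 and 0.157 CPM in controls. Krt2, the type II keratin of late differentiation, was thus higher in each 14-day library than in any control, with a log2 fold change of 2.17 (edgeR adjusted p = 0.238). Krt9, the keratin of palm and sole epidermis, did not exceed 0.507 CPM in any library.

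**Figure D4:**
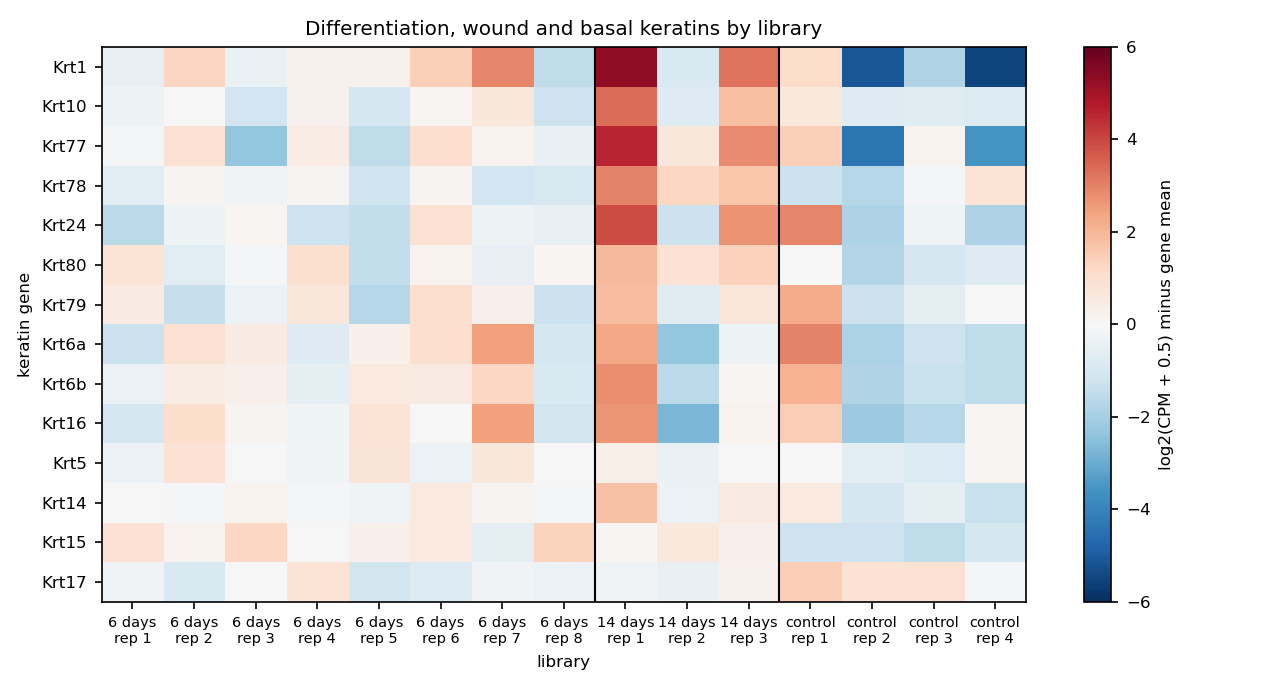
Heat map of 14 keratins (rows) in the 15 libraries (columns, lines divide 6 days, 14 days and control); colour is log2(CPM + 0.5) minus the gene's mean over libraries. Krt1, Krt10, Krt77 and Krt24 are high in 14-day replicates 1 and 3, where Krt10 is at 3011 and 1016 CPM, and not in replicate 2, at 167 CPM; Krt6a and Krt79 are high in control replicate 1.

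Krt12, the type I keratin of the corneal epithelium, was lower at both times, with the largest decrease of the keratins called at 14 days. At 6 days Krt12 had a lowest, median and highest level of 1.26, 2.68 and 5.53 CPM, and at 14 days levels of 1.04, 0.916 and 0.530 CPM, against 4.53, 22.2, 12.1 and 9.75 CPM in the control libraries. All 14-day libraries lay below every 6-day and every control library, and control replicate 1 lay inside the 6-day range. Krt12 averaged 2.94 ± 1.64 CPM at 6 days and 0.8286 ± 0.2658 CPM at 14 days, against 12.2 ± 7.41 CPM in controls. It was 14.6-fold lower at 14 days than in controls (log2 fold change -3.87, standard error 0.69, edgeR adjusted p = 0.0064), a call kept with each of the 15 libraries left out in turn and in the 7 other fits, and 4.11-fold lower at 6 days (-2.04, 0.46, edgeR adjusted p = 0.0414). The 6-day call held within range A (-2.77, edgeR adjusted p = 0.0078) and not within range B (-1.06, edgeR adjusted p = 0.594). It was lost without control replicate 2, 3 or 4, 14-day replicate 2 or 3, or 6-day replicate 1, 2, 3, 4, 5, 6 or 8, with edgeR adjusted p of 0.0502 to 0.174, and in the fit of the 6-day and control libraries alone (edgeR adjusted p = 0.0629). At 14 against 6 days the log2 fold change was -1.83 (edgeR adjusted p = 0.0870; DESeq2 adjusted p = 0.0092).

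The other 4 keratins of mucosa and cornea, Krt4, Krt13, Krt24 and Krt76, had an edgeR adjusted p above 0.05 in each comparison. Krt24, found in the cornea and in differentiating keratinocytes, was at 26.9, 0.248 and 11.3 CPM in 14-day replicates 1 to 3 and at 13.5 CPM in control replicate 1, and did not exceed 2.91 CPM in any 6-day library or 1.03 CPM in another control. Krt4, Krt13 and Krt76, of mucosal epithelia, stayed at or under 2.74 CPM in each library.

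Krt42 is a type I keratin whose gene lies 1.85 kb from Krt17 and whose human counterpart is a pseudogene. The levels of Krt42 were 4.24 to 27.7 CPM at 6 days, with a median of 7.14 CPM, and 4.53, 7.41 and 9.10 CPM at 14 days, against 24.4, 54.5, 32.1 and 68.3 CPM in controls. At 14 days each library lay below every control; at 6 days 7 of 8 did, and replicate 4 lay above control replicate 1. Krt42 averaged 9.44 ± 7.51 CPM at 6 days and 7.01 ± 2.31 CPM at 14 days, against 44.8 ± 20.2 CPM in controls. It was 4.76-fold lower at 6 days (log2 fold change -2.25, standard error 0.43, edgeR adjusted p = 0.0221) and 6.40-fold lower at 14 days (-2.68, 0.61, edgeR adjusted p = 0.0184).

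The RPKM of Krt17 was 390 to 791 times that of Krt42 at 6 days and 612 to 1179 times at 14 days, against 81.5 to 702 times in controls; 0.268% of the 50-base words of Krt42 are shared with Krt17. Without a stated strand setting, reads of overlapping transcripts cannot be told apart. Within ranges A and B the log2 fold change of Krt42 at 6 days was -1.67 and -3.55 (edgeR adjusted p = 0.0540 and 0.0525), and without the range B libraries -1.69 (edgeR adjusted p = 0.0955). The 6-day call was lost without control replicate 2 (edgeR adjusted p = 0.0785) and the 14-day call without any 1 of the 14-day replicates (edgeR adjusted p of 0.0564 to 0.0999).

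Hair shaft keratins were sparse. Krt32, the type I keratin of the hair cuticle, was the called one of 9 tested members and rose at 14 days; at 6 days edgeR called 0 of the 9 (2 at an unadjusted p under 0.05, 0 by DESeq2). Krt32 ran from 3.73 to 19.0 CPM at 6 days (median 7.501), and was 25.4, 15.4 and 17.9 CPM at 14 days, against 5.80, 0.535, 2.53 and 5.03 CPM in controls. The 14-day libraries lay above all controls and overlapped the 6-day group. It averaged 10.03 ± 5.29 CPM at 6 days and 19.6 ± 5.23 CPM at 14 days, against 3.48 ± 2.41 CPM in controls. Krt32 was 5.62-fold higher at 14 days (log2 fold change 2.49, standard error 0.64, edgeR adjusted p = 0.0329), and 6 days gave 1.52 (0.55, edgeR adjusted p = 0.220). The 14-day call was lost without control replicate 3 or any 1 of the 14-day replicates (edgeR adjusted p of 0.0583 to 0.122), and in the fit of the 14-day and control libraries alone (edgeR adjusted p = 0.103).

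The other 8 tested shaft keratins had an edgeR adjusted p above 0.05 in each comparison. At 6 days Krt31 had a lowest, median and highest level of 0.732, 1.49 and 2.32 CPM, and at 14 days levels of 0.547, 0.481 and 0.396 CPM, against 0.434, 0.297, 0.437 and 2.65 CPM in the control libraries. Krt31, of the hair cortex, was thus lower in each 14-day library than in any 6-day library, with a log2 fold change of -1.73 (edgeR adjusted p = 0.137; DESeq2 adjusted p = 0.0263). Within range A, Krt31 was higher at 6 days than in controls by 1.81 (edgeR adjusted p = 0.0278), against 0.71 over all libraries (edgeR adjusted p = 0.717). It shares 28.1% of its 50-base words with other keratins. The levels of Krt35 were 0.0505 to 1.02 CPM at 6 days, with a median of 0.430 CPM, and 2.04, 1.25 and 3.02 CPM at 14 days, against 3.58, 0.951, 0.562 and 1.19 CPM in controls. Krt35, of the matrix and lower cortex, was higher in each 14-day than in any 6-day library (log2 fold change 2.15, edgeR adjusted p = 0.0853; 0.0391 with range B as a covariate), and against control gave 0.42 (edgeR adjusted p = 0.809). The other 6 tested members, Krt33a, Krt36, Krt82, Krt83, Krt84 and Krt87, stayed at or under 1.56 CPM.

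Of the inner root sheath, 5 of 7 keratins were tested and 0 were called by edgeR at 14 days against control, with 1 at an unadjusted p under 0.05 (Krt28) and 1 by DESeq2. In Krt28 each 14-day library lay below every control (log2 fold change -1.59, edgeR adjusted p = 0.0933). Krt27 ran from 5.82 to 9.51 CPM at 6 days (median 8.20), and was 1.46, 4.45 and 4.95 CPM at 14 days, against 4.42, 6.36, 2.999 and 0.805 CPM in controls. At 6 days Krt71 had a lowest, median and highest level of 4.49, 16.0 and 24.6 CPM, and at 14 days levels of 4.72, 10.6 and 11.2 CPM, against 6.59, 15.2, 5.56 and 5.35 CPM in the control libraries. Krt27 was lower in each 14-day than in any 6-day library (log2 fold change -1.14, edgeR adjusted p = 0.185), and Krt71 overlapped in all groups. The levels of Krt25 were 0.00801 to 2.90 CPM at 6 days, with a median of 0.0951 CPM, and 0.814, 0.372 and 2.04 CPM at 14 days, against 0.976, 0.832, 0.281 and 0.313 CPM in controls. Krt73 ran from 0.227 to 7.22 CPM at 6 days (median 1.40), and was 2.63, 0.202 and 2.30 CPM at 14 days, against 4.91, 1.75, 0.0312 and 1.33 CPM in controls. Neither Krt25 nor Krt73 had a log2 fold change against control beyond its standard error at either time.

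Keratins of simple epithelia, which also mark Merkel cells (Krt8, Krt18 and Krt20) or ducts and glands (Krt7, Krt19 and Krt23), gave 0 edgeR calls among 6 members in each comparison (unadjusted p under 0.05 in 1 at 6 days and 2 at 14 days against control, and in 1 at 14 against 6 days; DESeq2 called 0, 1 and 1). At 6 days Krt7 had a lowest, median and highest level of 6.73, 14.6 and 32.0 CPM, and at 14 days levels of 10.4, 38.1 and 29.9 CPM, against 27.2, 6.48, 16.6 and 2.92 CPM in the control libraries. The levels of Krt19 were 1.74 to 4.87 CPM at 6 days, with a median of 2.598 CPM, and 0.698, 1.67 and 0.959 CPM at 14 days, against 2.36, 1.46, 1.03 and 5.38 CPM in controls. Krt19 was lower in each 14-day library than in any 6-day library (log2 fold change -1.38, edgeR adjusted p = 0.144; DESeq2 adjusted p = 0.0376). Krt23 ran from 0.827 to 6.03 CPM at 6 days (median 2.65), and was 5.81, 2.19 and 5.72 CPM at 14 days, against 2.01, 0.564, 1.31 and 2.002 CPM in controls. Krt23 was higher in each 14-day library than in any control (log2 fold change 1.63, edgeR adjusted p = 0.147), and Krt7 overlapped.

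At 6 days Krt8 had a lowest, median and highest level of 0, 0.164 and 0.470 CPM, and at 14 days levels of 0.431, 0.838 and 0.581 CPM, against 0.244, 0.0891, 0.750 and 0.380 CPM in the control libraries. The levels of Krt18 were 0.0889 to 1.25 CPM at 6 days, with a median of 0.192 CPM, and 0.219, 0.303 and 0.252 CPM at 14 days, against 1.49, 0.0891, 0 and 3.43 CPM in controls. Krt20 ran from 0.111 to 0.462 CPM at 6 days (median 0.211), and was 0.0958, 0.0233 and 0.286 CPM at 14 days, against 0.108, 1.10, 0.656 and 1.90 CPM in controls. All 3 Merkel keratins were thus at or under 3.43 CPM in each library, and control replicate 4 held the highest Krt18 and Krt20 values. Krt20 had log2 fold changes of -2.001 at 6 days and -2.80 at 14 days (edgeR adjusted p = 0.191 and 0.0965). Of 6 Merkel cell markers, Atoh1, Isl1, Insm1 and Chga were under 1 CPM in every library and 2 were tested. By edgeR 1 of these 2 was called at 14 days against control, where 6.60% of all genes were called. Piezo2 was 11.9-fold lower there (edgeR adjusted p = 0.0336). It averaged 0.735 ± 0.0830 CPM at 14 days, against 8.76 ± 11.2 CPM in controls, which ran from 2.16 to 25.5 CPM. The summed markers were at 2.58 to 11.2 CPM at 6 days, 2.12 to 2.92 CPM at 14 days and 4.36 to 27.1 CPM in controls, the highest in control replicate 4. The part of Merkel cells in the Krt18 and Krt20 values was not tested.

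Of 15 listed linker proteins, which tie keratin filaments to desmosomes and hemidesmosomes or pack them into bundles, 13 were tested. Pkp3, a desmosomal plakophilin, rose 1.97-fold at 14 days against control (1391 ± 242 CPM at 14 days, against 708 ± 103 CPM in controls; edgeR adjusted p = 0.0104), and Jup, the desmosomal plakoglobin, was 1.85-fold higher at 14 than at 6 days (edgeR adjusted p = 0.0476). These calls were 1 of 13 at 14 days against control and 1 of 13 at 14 against 6 days, where 6.60% and 3.89% of all genes were called, so the linker counts were near those of all genes. At 6 days edgeR called 0 of the 13, with 2 at an unadjusted p under 0.05 and 0 by DESeq2.

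Of 22 listed transcription factors of keratinocytes and hair, all tested, edgeR called 0 at 6 days (3 at an unadjusted p under 0.05, 1 by DESeq2), and 2 rose and 1 fell at 14 days against control, where 6.60% of all genes were called. Hoxc13, which activates hair shaft keratin genes, averaged 75.5 ± 48.7 CPM at 6 days and 10.3 ± 6.19 CPM at 14 days, against 86.3 ± 58.0 CPM in controls. It was 8.34-fold lower at 14 days than in controls and 7.30-fold lower than at 6 days (edgeR adjusted p = 0.0233 and 0.0373). At 14 against 6 days Hoxc13 was the 1 call among the 22, where 3.89% of all genes were called. An unadjusted p under 0.05 was found in 8 of the 22 at 14 days against control and in 11 at 14 against 6 days. DESeq2 called 7 and 5 in these comparisons. Nfatc1, a regulator of bulge stem cells, was 3.26-fold higher at 14 days than in controls, and Gata3, of the inner root sheath, 2.03-fold higher (edgeR adjusted p = 0.0246 and 0.0436).

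Of 54 keratin-associated protein genes (Krtap) in the files, which encode the matrix of the hair shaft, 3 were tested, and 51 were under 1 CPM in every library. Krtap11-1 was 12.4-fold lower at 14 days than in controls and 6.79-fold lower than at 6 days (edgeR adjusted p = 0.0116 and 0.0390). Its levels were low, at 0.104 ± 0.0758 CPM at 14 days and 0.720 ± 0.426 CPM at 6 days, against 1.31 ± 0.569 CPM in controls. Krtap17-1 was 7.72-fold lower at 14 than at 6 days (2.80 ± 2.20 CPM at 14 days, against 21.6 ± 14.9 CPM at 6 days; edgeR adjusted p = 0.0299). These calls were 1 of 3 at 14 days against control, where 6.60% of all genes were called. At 14 against 6 days they were 2 of 3, where the share was 3.89%. In the same 14-day libraries Krt32, also of the shaft, was higher than in controls; the relation between these values was not tested.

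Of the marker lists for non-epithelial cells, edgeR called members of the immune list alone. Immune markers, 6 of 8 tested, summed to 27.9 to 64.1 CPM at 14 days, against 7.29 to 15.8 CPM at 6 days, with 7.99 to 66.6 CPM in controls. Csf1r and C1qa, 2 of the 6 tested, passed at 14 against 6 days (edgeR adjusted p = 0.0230 and 0.0311). Of all genes 3.89% were called there. At 6 days against control edgeR called 0 of the 6, with 4 at an unadjusted p under 0.05 and 1 by DESeq2. The median log2 fold change of the 6 there was -2.18. At 14 days against control edgeR called 0, with 1 at an unadjusted p under 0.05 and 1 by DESeq2. Cd3d was under 1 CPM in every library, and the part of immune cells in the keratin values was not tested. Melanocyte markers, 5 of 5 tested, with 0 called by edgeR, 0 at an unadjusted p under 0.05 and 0 by DESeq2, summed to 50.7 to 835 CPM at 6 days, 46.7 to 356 CPM at 14 days and 34.3 to 667 CPM in controls.

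The 4 members with no listed compartment were Krt42, Krt88, Krt90 and Krt222. Krt88, Krt90 and Krt222 stayed at or under 2.26 CPM, and edgeR called 0 of these 3 in each comparison.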

How the data were processed

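RNA was purified from sorted tumour cells on silica columns and its integrity read on a Bioanalyzer, per the labels' protocols. Per the file headers, the authors deposited, for each gene, counts of uniquely aligned reads and RPKM values, in which those counts are scaled to gene length and adjusted by size factors. GSNAP and GRCm38 are named in the submitters' processing notes; versions, gene annotation and strand handling are not stated there. Of 36528 Entrez identifiers, 31049 matched the RefSeq gene table (GRCm38.p6), and all 53 keratins of that table that fit the rule were in the files; 5479 identifiers with 1.24 to 1.59% of the counts did not match. Krt74 was left out as a transcribed pseudogene.

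Counts were tested in R 4.3.3 by the quasi-likelihood F test of edgeR 4.0.16, after filterByExpr on group and with TMM factors. All 15 libraries entered 1 fit with 3 groups and no covariate; 18751 genes were tested on 12 residual degrees of freedom. A biological coefficient of variation of 0.579 was common to these genes, and total counts of 27336935 to 256569828 set the precision. Adjusted p is Benjamini-Hochberg over all genes tested. RPKM served to compare levels between genes and was used for no test. Replicate numbers follow accession order, and of 105 pairs of libraries the closest differed by a chi-square of 56.8 per degree of freedom, so none was taken for a repeat.

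Values per library are given for 30 tested members, those called in any comparison and those of a list set by name; other members are given by range. Genes of the other lists are given by count, with values for called members, at most 4 a list. The members, lists and rules were chosen with earlier results of these data known. Alternatives were RLE factors, DESeq2 1.42.0, no filter on low counts, at least 1 CPM in at least 3 libraries, the compared groups alone, range B as a covariate, within range A or B (a fit with 1 mean per group and range), without the range B libraries, and each library left out in turn. The fit was checked on simulated data. Shared words are identical 50-base stretches between GENCODE transcripts of keratins. Summaries were made in Python 3.11.15 (pandas 2.3.3, numpy 2.4.6) and drawn with matplotlib 3.10.9.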

Additional observations from a re-analysis of the deposited data

Results flagged for a closer look

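Within each group of 4 or 8 libraries, 60 sets of CPM values of named keratins were searched, on the scale of log2(CPM + 0.5), for a library far from the rest, a search in which chance flags about 1 in 20 sets; 7 were found. Control replicate 1 stood high for Krt6a (600.1 CPM, the next control at 31.1), Krt6b (12.2 CPM, the next at 0.656) and Krt10 (447 CPM, the next at 178). Control replicate 4 stood high for Krt31 (2.65 CPM, the next at 0.437). Among the 6-day libraries, replicate 7 stood high for Krt18 (1.25 CPM, the next at 0.454), replicate 4 high for Krt42 (27.7 CPM, the next at 8.87) and replicate 6 low for Krt75 (13.1 CPM, the next at 28.1). The 6-day replicate 4 is also the 1 treated library in which Krt17 exceeded Krt15 per length.

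The change of Krt10 against control differed between the treated groups: it was higher at 14 than at 6 days by 2.45 on the log2 scale (edgeR adjusted p = 0.0332), the 2 changes sharing their controls. For Krt31 each 14-day library lay below the control mean of log2(CPM + 0.5), by 0.32 on average (-0.32), and each 6-day library above it, by 0.73. The difference of -1.05 on that scale was not tested as such. The edgeR contrast of the treated groups gave -1.73 (adjusted p = 0.137). The control mean leaned on control replicate 4 (2.65 CPM, flagged above), with the other controls at 0.434, 0.297 and 0.437 CPM. Of the 14-day libraries, replicates 1 and 2 (0.547 and 0.481 CPM) lay above those other controls, and replicate 3 (0.396 CPM) lay among them.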

How the results depend on the processing

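For the 30 keratins set by name or called, 2034 log2 fold changes were refitted over the 3 comparisons. Of these, 1947 stayed on the same side of the threshold, 57 lost a call, 30 gained one and 0 calls reversed. Uncalled values did not all keep their direction. Krt16 at 6 days against control went from 0.61 to -0.50 within range A. Krt5 at 14 against 6 days went from -0.22 to 0.17 with range B as a covariate. Counts of keratins called changed as follows, and the cause was not tested. At 6 days against control, 1 higher and 2 lower became 2 and 1 within range A, and 0 and 0 within range B; the lower count was 1 with the compared groups alone and 1 without the range B libraries. At 14 days against control, 4 higher and 2 lower became 8 and 4 with DESeq2, and the higher count was 2 with the compared groups alone. At 14 against 6 days, 1 higher and 0 lower became 5 and 3 with DESeq2 and 3 and 1 with the compared groups alone, and the higher count was 3 with range B as a covariate. With each library left out in turn the counts ran from 0 to 2 higher and 0 to 2 lower at 6 days, 0 to 7 and 1 to 3 at 14 days, and 0 to 3 and 0 to 1 at 14 against 6 days. The 6-day higher count was 0 without control replicate 2 or 3 and 2 without control replicate 4, and the lower count was 0 without control replicate 2 and 1 without control replicate 3 or 4, 14-day replicate 2 or 3, or 6-day replicate 1, 2, 3, 5, 6 or 8. The 14-day higher count was 7 without control replicate 1, 1 without control replicate 2 or 14-day replicate 1, 2 without 14-day replicate 2, and 0 without control replicate 3 or 14-day replicate 3, and the lower count was 1 without any 1 of the 14-day replicates. At 14 against 6 days the higher count was 3 without control replicate 2 or 4 and 0 without 14-day replicate 1 or 3 or 6-day replicate 1, 2, 3, 5 or 8, and the lower count was 1 without control replicate 4. The difference of the 6-day change between ranges A and B was called by edgeR in 0 of 45 keratins (8 at an unadjusted p under 0.05; smallest adjusted p = 0.261, Krt31) and in 0.117% of all genes; it was not run with another tool.

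No paired analysis was possible because the labels give no replicate numbers. Calls over all genes (higher and lower) moved by over 1.5 times from 91 and 145 at 6 days to 389 and 483 with DESeq2, 382 and 484 with range B as a covariate, 402 and 426 within range A, 6 and 16 within range B and 213 and 252 without the range B libraries. From 609 and 629 at 14 days they moved to 1101 and 1659, to 1561 and 1635 with the covariate, to 1062 and 1268 without range B, and to 153 and 221 with the compared groups alone. From 402 and 328 at 14 against 6 days they moved to 1069 and 1539, 1000 and 1036, and 671 and 651, and the lower count to 148 with no filter. With each library left out they ran from 21 to 127 and 48 to 208, 208 to 784 and 168 to 654, and 0 to 617 and 3 to 521, with the lowest at 6 days without control replicate 2 and the others without 14-day replicate 1. Limits are the 3 libraries at 14 days, all of range C, the 1 control in range B, and members near the floor of 3 counts.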
